A study of Mus musculus with 4 samples.

Results

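The 34 genes described here encode proteins of complement and coagulation, the pair of plasma protease cascades that mark injured tissue and stop bleeding. They were chosen by name from the 55401 genes of the deposited table, and all 34 were found in it. By role there were 15 complement components, 8 complement receptors and regulators, and 11 coagulation genes. Their transcripts were measured in 4 poly(A) RNA sequencing libraries of mouse heart taken 28 days after surgery. The MI hearts (n = 2) came from mice operated on with a ligation, and MI stands for myocardial infarction, in which heart muscle dies for want of blood. The Sham hearts (n = 2) had the chest opened with no ligation. The sources used here give no strain, age or sex, and do not say which region each library came from or whether it is 1 animal. The series is named for cyanidin, and no cyanidin-treated hearts were analysed here.

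Complement starts in 3 ways. In the classical pathway C1q binds antibody or dying cells and activates the proteases C1r and C1s, which cleave C4 and C2, whereas the lectin pathway uses MASP proteases for the same step and the alternative pathway amplifies on surfaces through factors B and D and properdin. All 3 converge on C3, whose fragments coat targets and call in phagocytes, and end in the membrane attack complex that begins with C5, C6 and C7. Coagulation begins when tissue factor meets factor VII, runs through factors X and V to thrombin and fibrin, and is held back at the vessel wall by thrombomodulin, the protein C receptor, protein S and tissue factor pathway inhibitor. The liver makes most of these proteins for plasma, while macrophages, fibroblasts and endothelium make some of them locally.

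The libraries held 72857907 and 75979320 estimated counts in the MI libraries, and 72485370 and 66624106 in the Sham libraries (replicate 1 first here and below). Low counts piled up at multiples of 4, an apparent 4 counts to a fragment. Cardiomyocyte markers (Actc1 and Myh6 highest) were abundant in all 4, with summed levels of 8830 and 8150 FPKM in MI and 7980 and 8950 FPKM in Sham libraries. FPKM is the authors' abundance per gene length and library size. Other tissues differed by library. Lung markers, led by Scgb1a1 and Sftpc, summed to 283 FPKM in MI replicate 1 and to 0.17 in MI replicate 2, and to 0.12 and 0.86 in Sham libraries. Atrial markers, led by Myl7 and Myl4 in mean FPKM, summed to 11.4 and 7.34 FPKM in MI libraries and to 1.28 and 1530.0 in Sham libraries. Dkk3, named after its values were seen, made up most of the MI sums (9.49 and 6.33 FPKM, with 0.41 and 38.47 in Sham). Myl7 had 1.2 and 0.41 FPKM in MI and 0.46 and 1127.51 in Sham, and Myl4 0.6 and 0.57 in MI and 0.41 and 185.53 in Sham. Adipocyte markers (Adipoq, Cidec) summed to 0.01 and 0.09 in MI and to 0 and 29.6 in Sham. Liver markers (Alb, Apoa2) summed to 26.9 and 19.3 FPKM in MI and to 14.6 and 1.91 in Sham libraries, with 3 of 5 at 0 in Sham replicate 2. Platelet markers (Pf4, Ppbp) had sums of 20.2 and 9.69 FPKM in MI and 25.6 and 17.0 in Sham, and neutrophil markers (S100a9, S100a8) 20.2 and 8.85 in MI and 60.2 and 11.3 in Sham. FPKM are not corrected for library composition and ran 0.22 higher in MI on the log2 scale than the composition-scaled CPM (counts over library size, scaled by edgeR's trimmed mean) used for every log2 difference below.

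Of the 34 genes, C1s1, the protease C1s of the classical pathway, differed most firmly between MI and Sham hearts, with the smallest p of the members. Its level was about 3.5-fold higher in MI. In edgeR's quasi-likelihood test 0 of the 34 had an adjusted p under 0.05, as did 0% of the 18475 genes tested, and DESeq2 called C1s1 alone, against 2.18% of genes called higher and 1.26% called lower in MI. At an unadjusted p under 0.05 in edgeR, 6 members (17.6%) were higher in MI, namely C1s1, C6, Serping1, Thbd, Masp1 and Cd55, beside 7.12% of all genes. C7 alone was lower (2.94%), beside 4.51% of all genes. For 10 members (29.4%, beside 24.9% of all genes) the MI libraries were the 2 highest, and for 3 (8.82%, beside 21.9%) the 2 lowest. All 34 passed the filter on low counts, C6 through its MI values alone, so it had to differ. Without C6, 5 of 33 members (15.2%) were higher at an unadjusted p under 0.05 and 9 (27.3%) had the MI libraries highest. In whole heart tissue a change in the number of cells of a type and a change in RNA per cell cannot be told apart.

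**Figure D1:**
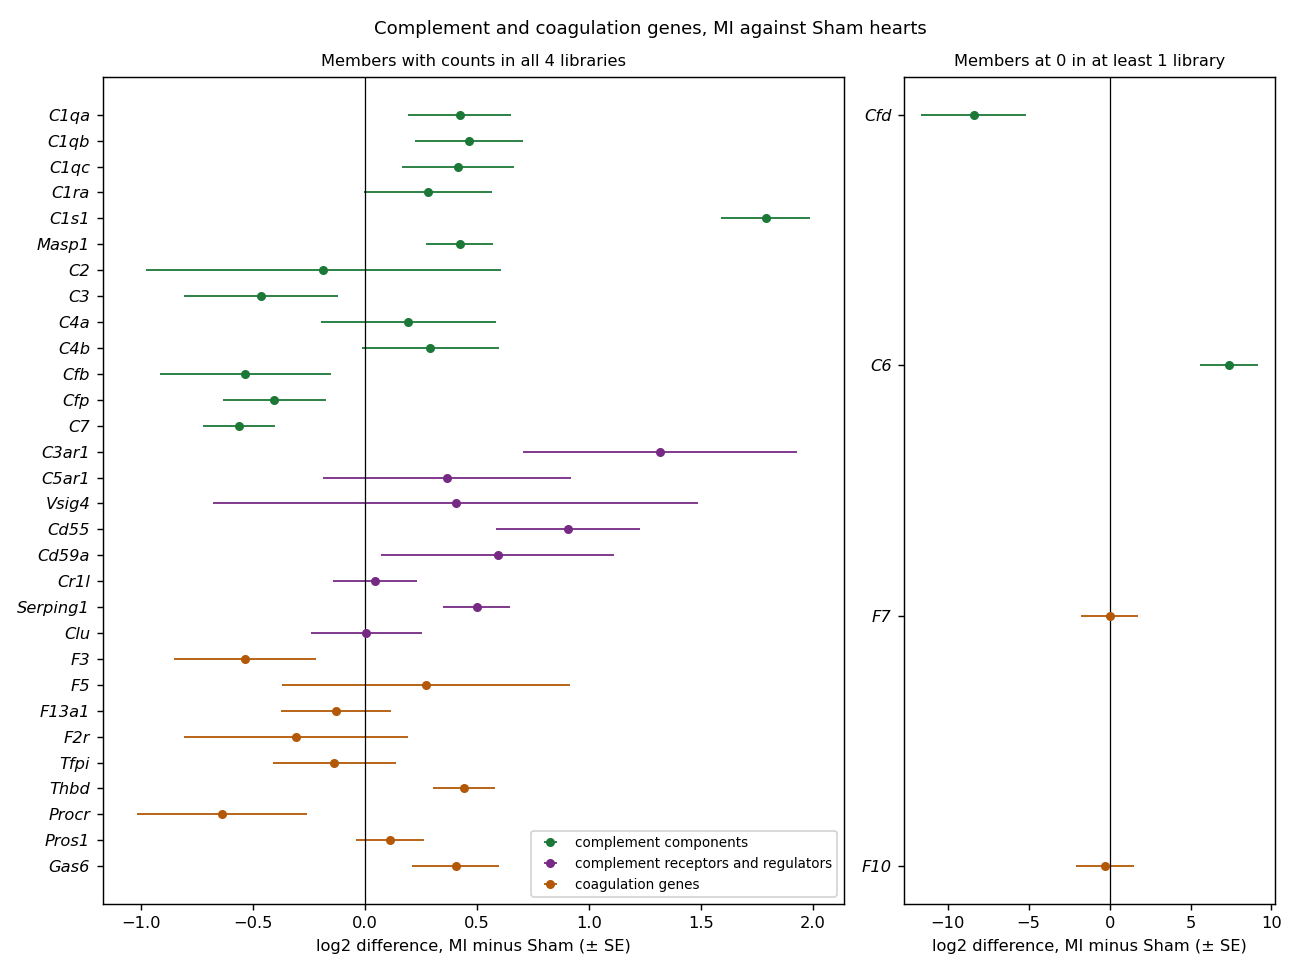
Log2 difference between MI and Sham hearts (horizontal axis, MI minus Sham, with the model's SE as bars) for each gene, from edgeR with 2 libraries per group. C1s1 sits at 1.79, while most genes with counts in all libraries lie between -1 and 1, and the 4 genes with a library at 0 (right, on a wider axis) have SEs of 1.76 to 3.24.

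The 3 classes had small median log2 differences, 0.28 for complement components, 0.45 for complement receptors and regulators and -0.13 for coagulation genes, beside 0.00 (0.00312) for all genes tested. Of the components 9 were positive and 6 negative, of the receptors and regulators 8 and 0, and of the coagulation genes 5 and 6. Among the receptors and regulators, Clu (0.00469) and Cr1l (0.05) lay near 0. C5ar1, Vsig4, Cd59a, Cr1l and Clu changed sign in at least 1 fit with a library left out. Leaving out Sham replicate 1 put the component median at -0.03, leaving out MI replicate 1 at 0.06 and leaving out Sham replicate 2 at 0.52, and limma on log2(FPKM + 1) gave 0.11. The coagulation median became -0.41 when MI replicate 1 was left out, 0.16 for MI replicate 2, 0.15 for Sham replicate 1 and 0.07 for Sham replicate 2. Some members counted as higher below could not have come out otherwise. C6, F7 and F10 had 0 counts in Sham replicate 2, the Sham library left when Sham replicate 1 was dropped. C6 also had 0 in Sham replicate 1, the Sham library left when Sham replicate 2 was dropped. In those fits they passed the filter through MI values alone. Without MI replicate 1, 2 members were higher and 0 lower at an unadjusted p under 0.05, beside 2.23% and 1.95% of all genes. Without MI replicate 2 they numbered 4 and 0, beside 4.02% and 2.06%. Without Sham replicate 1 they numbered 9 and 5, beside 9.67% and 6.1%, and without Sham replicate 2 they numbered 9 and 2, beside 9.72% and 5.86%. After adjustment 0% of all genes were called without either MI library, 0.0706% without Sham replicate 1 and 0.0254% without Sham replicate 2, and 0 members in any of these fits.

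**Figure D2:**
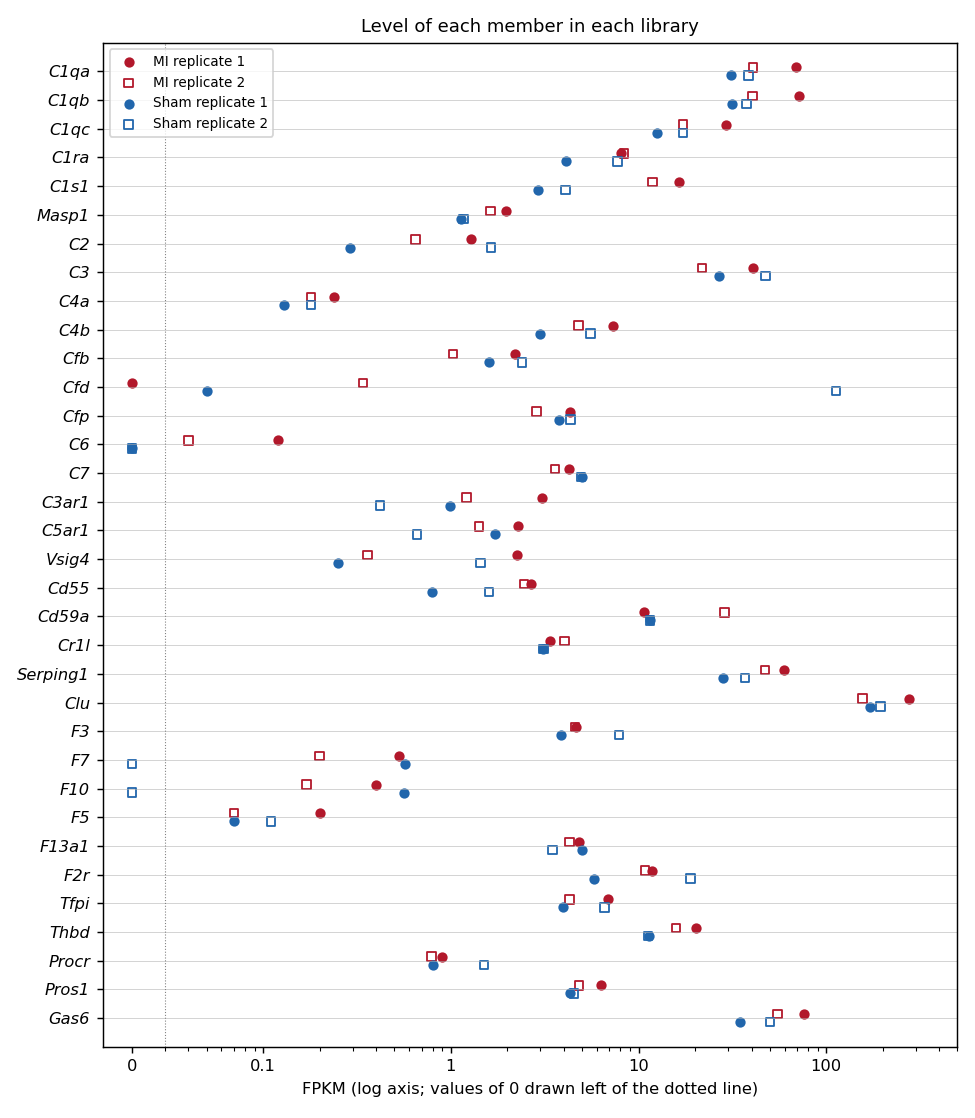
FPKM of each of the 34 genes in each library (log axis; 0 is drawn left of the dotted line), MI libraries in red above Sham libraries in blue. Clu is the most abundant, at 156 to 276 FPKM, and Cfd spans the widest range, with 112.93 FPKM in Sham replicate 2 against 0 to 0.34 in the other libraries.

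The classical pathway opens with C1q, whose A, B and C chains are encoded by 3 neighbouring genes on chromosome 4 (GRCm38), all on the minus strand. C1qa lies at 136895917 to 136898803, C1qc at 136889804 to 136893065 and C1qb at 136880129 to 136886187, with 2851 and 3616 bases between neighbours. Macrophages are their main source in most tissues. C1qa had 68.7 and 45.2 CPM in MI libraries, against 40.3 and 44.7 CPM in Sham libraries. C1qb had 74.0 and 47.2 CPM in MI libraries and 42.3 and 45.6 CPM in Sham libraries, and C1qc had 54.1 and 35.6 CPM in MI libraries and 30.0 and 37.3 CPM in Sham libraries. MI replicate 1 stood above the rest for each chain, MI replicate 2 was close to Sham replicate 2, and for C1qc the groups overlapped. The log2 differences were 0.42 ± 0.23 (SE), 0.46 ± 0.24 and 0.41 ± 0.25 for the A, B and C chains (edgeR adjusted p = 0.536, 0.521 and 0.571), and 0.10, 0.11 and 0.09 without MI replicate 1.

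The 3 chains kept nearly the same proportion in every library. C1qa stood to C1qb, in FPKM, as 0.971 and 1.0 in MI and as 0.998 and 1.03 in Sham libraries, and C1qc to C1qb as 0.412 and 0.424 in MI and as 0.400 and 0.461 in Sham. Macrophage markers (Lyz2 and Cd68 highest) summed to 261 and 128 FPKM in MI libraries and to 98.9 and 115 in Sham libraries, with 0 of 7 markers at 0 in any library. Past an unadjusted p of 0.05 were 0 of 7, beside 7.12% of all genes higher in MI and 4.51% lower. The summed C1q chains stood to that sum as 0.649 and 0.77 in MI and as 0.759 and 0.811 in Sham libraries. Lyz2 made up most of that sum, with 227 and 108 FPKM in MI and 79.7 and 96.7 in Sham libraries. The markers did not share 1 order over the libraries. For 3 of 7 (Adgre1, Lyz2 and, narrowly, Mertk) the MI libraries were the 2 highest, beside 24.9% of all genes. Cd68 had 11.1 and 5.50 FPKM in MI and 6.83 and 5.86 in Sham, and Mrc1 was highest in Sham replicate 1. C1qb stood to Lyz2 as 0.314 and 0.377 in MI and as 0.393 and 0.388 in Sham. To Adgre1 it stood as 19.4 and 20.8 in MI and as 23.0 and 25.3 in Sham. Those ratios were lower in MI, while C1qb to Csf1r overlapped (8.17 and 7.8 in MI, 11.5 and 6.93 in Sham). Mrc1, Adgre1, Mertk and Csf1r were named after their values were seen. MI replicate 1, highest for each C1q chain and for the macrophage sum, was also the library with lung markers (283 FPKM). The parts of macrophage and lung content in the C1q values were not tested.

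Because the chains moved together, the bases before 2 of their genes' starts are shown (RefSeq, GRCm38.p6, minus strand, written 5′ to 3′). Capitals mark the motif AGGAAG, read on either strand and bound as a core by Ets factors such as the macrophage factor PU.1. The C1qb stretch is chr4:136886201-136886450 and the C1qc stretch chr4:136893066-136893164, which was kept to bases outside the deposited gene. C1qa is named only.
C1qb: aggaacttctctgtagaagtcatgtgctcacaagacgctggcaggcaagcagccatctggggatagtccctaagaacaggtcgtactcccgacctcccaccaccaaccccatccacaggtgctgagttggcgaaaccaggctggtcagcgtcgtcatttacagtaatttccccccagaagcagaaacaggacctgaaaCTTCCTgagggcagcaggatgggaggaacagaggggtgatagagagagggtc
C1qc: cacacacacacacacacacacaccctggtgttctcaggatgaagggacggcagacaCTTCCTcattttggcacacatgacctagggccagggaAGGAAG
C1qb had 1 match, 47 bases before its start, and C1qc had 2. The 6 letters occur in 29.5% of 32851 promoter windows of 250 bases and in 7 of the 25 members with a window, so a match here is common. The letters were chosen after the sequences had been read.

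The partner proteases C1r and C1s parted. C1s1 (ENSMUSG00000038521, chromosome 6, 124530345 to 124542359, minus strand) had 49.0 and 39.7 CPM in MI libraries, against 11.3 and 14.3 CPM in Sham libraries. Both MI libraries lay far above both Sham libraries. The log2 difference was 1.79 ± 0.20, a 3.46-fold higher level in MI (edgeR adjusted p = 0.188; DESeq2 adjusted p = 2.81e-10), and it ranged from 1.63 to 1.97 with any 1 library left out. C1s1 had an unadjusted p under 0.05 in all 12 alternatives, with adjusted p from 2.81e-10 to 0.991.

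C1ra, 6901 bases away on chromosome 6 (124512405 to 124523443, plus strand), encodes C1r, which activates C1s. It had 23.0 and 26.7 CPM in MI libraries and 15.2 and 25.8 CPM in Sham libraries, a log2 difference of 0.28 ± 0.29 (adjusted p = 0.736) that was -0.05 without Sham replicate 1. Sham replicate 1 was low and the other 3 libraries were alike. Within a library C1s1 stood to C1ra, in FPKM, as 2.03 and 1.42 in MI and as 0.71 and 0.529 in Sham. C1s1 stood to Serping1, which encodes the C1 inhibitor, as 0.274 and 0.251 in MI and as 0.103 and 0.111 in Sham. Against Dcn, a fibroblast matrix gene, it stood as 0.177 and 0.128 in MI and as 0.0655 and 0.0705 in Sham. These ratios do not depend on library scaling, and the groups did not overlap in any of the 3.

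**Figure D3:**
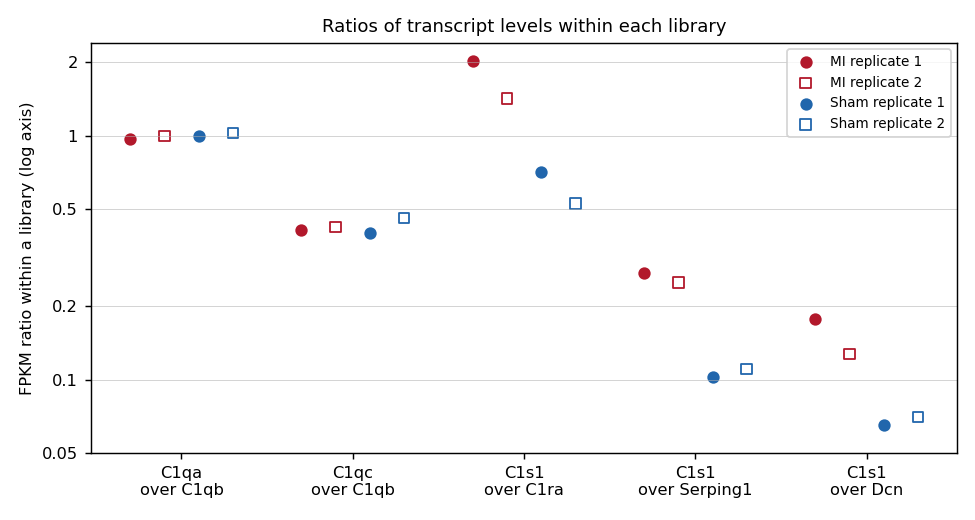
Ratio of FPKM values within each library (log axis), MI libraries in red left of Sham libraries in blue. The C1qa to C1qb ratio stays between 0.971 and 1.03, whereas the C1s1 to C1ra ratio is 2.03 and 1.42 in MI and 0.71 and 0.529 in Sham libraries.

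Fibroblasts express C1s. Fibroblast markers (Dcn and Dpt highest) summed to 222 and 191 FPKM in MI libraries and to 86.7 and 132 in Sham libraries, with 0 of 5 at 0. Of the 5, 2 (Dcn and Lum) were higher at an unadjusted p under 0.05, beside 7.12% of all genes, and 0 after adjustment in edgeR. DESeq2, which called C1s1, called these 2 as well (adjusted p = 0.0218 and 0.011), beside 2.18% of genes called higher in MI. All 5 markers had both MI libraries above both Sham libraries, beside 24.9% of all genes. C1s1 stood to this sum as 0.074 and 0.0619 in MI and as 0.0336 and 0.031 in Sham libraries, so the ratio was higher in both MI libraries as well. Against Lum alone, named after its values were seen, C1s1 had ratios of 0.295 and 0.366 in MI and 0.354 and 0.213 in Sham, which overlapped. The part of fibroblast number in the C1s1 difference was not tested. Both proteases have close copies. Of the 50-base words in the transcripts of C1s1, 21.8% occur in C1s2, and of those of C1ra, 48.0% occur in C1rb. C1s2 was listed with 0 and 57 counts in MI and 6 and 16 in Sham, so that C1s1 and C1s2 summed had a log2 difference of 1.78. C1ra and C1rb summed had 0.24. An antisense gene that overlaps 576 exonic bases of C1s1, Gm16567, was listed at 0 in all 4 libraries.

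Masp1, a protease of the lectin pathway (chromosome 16, 23449417 to 23520815, minus strand), had 18.5 and 17.2 CPM in MI libraries and 13.8 and 12.9 CPM in Sham libraries. The groups were apart by a small margin, with a log2 difference of 0.42 ± 0.15 (adjusted p = 0.403). With 1 library left out its unadjusted p was under 0.05 in 1 of 4 fits.

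Downstream of C1, the central components showed 0 of 4 past an unadjusted p of 0.05, beside 7.12% of all genes higher in MI and 4.51% lower. C4b, cleaved by C1s, had 39.8 and 29.3 CPM in MI and 21.03 and 35.4 CPM in Sham, a log2 difference of 0.29 ± 0.30 that was -0.03 without Sham replicate 1. Its near copy C4a, which the annotation lists as a processed transcript, had 119 and 92 counts in MI and 67 and 80 in Sham, and C4b shares 34.6% of its 50-base words with it, so their split is uncertain. C2, which pairs with C4 in the classical C3 convertase, had 4.78 and 2.71 CPM in MI and 1.4 and 7.13 CPM in Sham. Its Sham libraries lay on either side of the MI libraries, and its log2 difference of -0.19 ± 0.79 was 1.42 without Sham replicate 2 and 0.07 in limma on log2(FPKM + 1). C2 shares 38.7% of its words, and Cfb 73.0%, with the read-through gene Gm20547, listed with 7 and 0 counts in MI and at 0 in both Sham libraries.

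C3, the hub of the cascade and the most abundant component after the C1q A and B chains by mean FPKM, had 201 and 120 CPM in MI libraries, against 170.5 and 272.5 CPM in Sham libraries. Cfb, factor B of the alternative pathway, had 5.96 and 3.13 CPM in MI and 5.60 and 7.58 CPM in Sham. Both were highest in Sham replicate 2 and lowest in MI replicate 2, with log2 differences of -0.46 ± 0.34 and -0.53 ± 0.38 (adjusted p = 0.640 and 0.630). Mesothelial markers (Upk3b and Msln highest, 0 of 5 at 0) summed to 8.34 and 2.45 FPKM in MI and to 3.73 and 11.2 in Sham, also with Sham replicate 2 highest and MI replicate 2 lowest. Not every marker had that order. Msln and Upk1b did, but Upk3b was lowest in Sham replicate 1 (0.58 FPKM). Wt1 had 0.53 and 0.54 FPKM in MI and 0.51 and 1.08 in Sham. In CPM Wt1 was lowest in MI replicate 1 (3.165, with 3.624 in MI replicate 2 and 3.948 in Sham replicate 1). Krt19 was highest in MI replicate 1 (1.69 FPKM, against 0.88 in Sham replicate 2). Upk1b, Wt1 and Krt19 were named after their values were seen. The part of mesothelial content was not tested. Without Sham replicate 2 the log2 difference was -0.09 for C3 and -0.30 for Cfb. Cfp, properdin, which stabilizes the alternative convertase, had 7.19 and 5.33 CPM in MI and 8.18 and 8.41 CPM in Sham (log2 difference -0.41 ± 0.23, adjusted p = 0.546).

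Cfd, factor D or adipsin (chromosome 10, 79890853 to 79892655, plus strand), the serine protease that adipocytes secrete in quantity and that cleaves factor B, belonged to 1 library. It had 0 and 27 counts in MI replicates 1 and 2, against 4 and 7549 counts in Sham replicates 1 and 2. The fitted log2 difference of -8.40 ± 3.24 (adjusted p = 0.429) was 1.44 without Sham replicate 2, from 0, 27 and 4 counts, which lie near the floor of 12 counts, or 3 fragments. Adipoq, the adipocyte hormone adiponectin, had 0 counts in both MI libraries and in Sham replicate 1, and 1602 in Sham replicate 2. Of the 5 adipocyte markers, 4 were at 0 in MI replicate 1, 3 in MI replicate 2, 5 in Sham replicate 1 and 0 in Sham replicate 2.

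**Figure D4:**
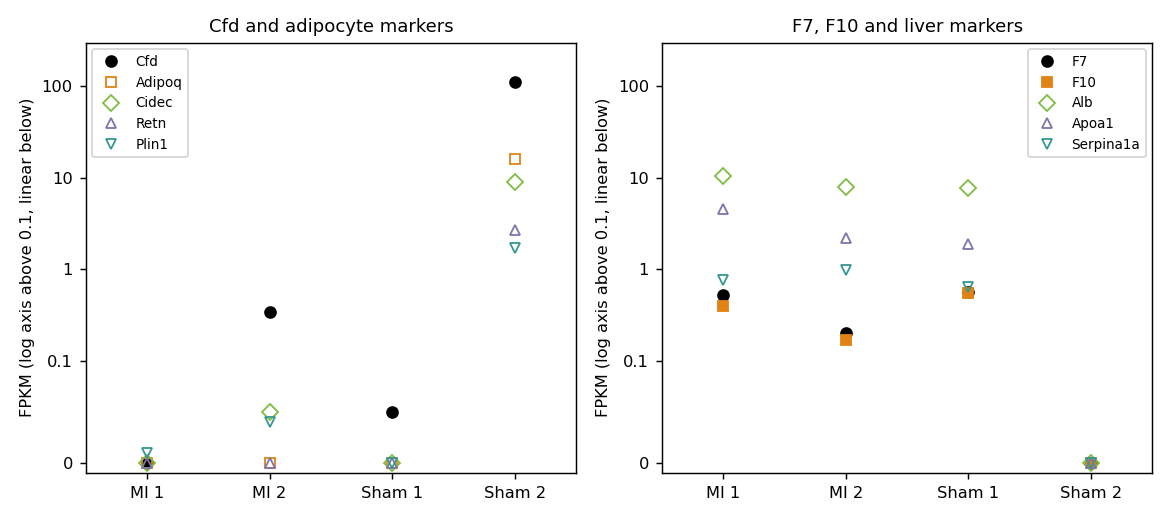
FPKM by library (log axis above 0.1, linear below) of Cfd with 4 adipocyte markers (left) and of F7 and F10 with 3 liver markers (right). Cfd reaches 112.93 FPKM only in Sham replicate 2, where Adipoq is at 16.0, and F7 and F10 are at 0 in the same library, where Alb, Apoa1 and Serpina1a are also at 0. The liver markers Ttr and Apoa2, not drawn, are at 0.99 and 0.92 FPKM in that library.

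The terminal pathway had a member on each side. C7, which anchors the forming attack complex in the membrane (chromosome 15, 4988762 to 5063740, minus strand), had 10.9 and 10.3 CPM in MI libraries, against 16.6 and 14.8 CPM in Sham libraries. The MI libraries lay below the Sham libraries, with a log2 difference of -0.57 ± 0.16 (adjusted p = 0.344). It ranged from -0.65 to -0.48 with 1 library left out, and its unadjusted p was under 0.05 in 2 of those 4 fits. C6, the component that C7 joins, had 35 and 12 counts in MI libraries and 0 in both Sham libraries. With each Sham library set at the floor of 12 counts, it was at least 1.54-fold higher in MI, and MI replicate 2 was itself at the floor.

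Among the receptors, C3ar1, which binds the anaphylatoxin C3a on myeloid cells, had 12.6 and 5.60 CPM in MI libraries and 5.29 and 2.02 CPM in Sham libraries. The MI libraries lay above the Sham libraries, narrowly for MI replicate 2, and the log2 difference was 1.31 ± 0.61 (adjusted p = 0.486), with 0.63 without MI replicate 1 and 2.17 without Sham replicate 1. C5ar1, the C5a receptor of neutrophils and macrophages, had 5.65 and 3.87 CPM in MI and 5.49 and 1.91 CPM in Sham, and its log2 difference of 0.36 ± 0.55 was -0.21 without Sham replicate 2. Vsig4, a receptor for C3 fragments on resident macrophages, had 3.20 and 0.58 CPM in MI and 0.47 and 2.39 CPM in Sham. Its spread within each group exceeded the difference between them (0.40 ± 1.08; -1.29 without MI replicate 1 and -0.33 without Sham replicate 1).

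Of the 5 regulators that protect the body's own cells, 2 (Serping1 and Cd55) were higher in MI at an unadjusted p under 0.05, beside 7.12% of all genes, and 0 after adjustment in edgeR. Serping1, the C1 inhibitor, which also restrains plasma kallikrein (chromosome 2, 84765387 to 84775444, minus strand), had 133 and 117.5 CPM in MI libraries, against 81.5 and 95.7 CPM in Sham libraries. The groups did not overlap, and the log2 difference was 0.50 ± 0.15 (adjusted p = 0.348), 0.39 to 0.62 with 1 library left out. Cd55, decay-accelerating factor, which takes apart C3 convertases (chromosome 1, 130439027 to 130462744, minus strand), had 12.5 and 12.8 CPM in MI libraries, against 4.78 and 8.70 CPM in Sham libraries. The MI libraries were alike and above both Sham libraries, with a log2 difference of 0.91 ± 0.32 (adjusted p = 0.405). That difference was 0.54 without Sham replicate 1 and 1.401 without Sham replicate 2.

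Cd59a, which blocks assembly of the attack complex, had 18.5 and 55.8 CPM in MI and 26.0 and 23.3 CPM in Sham. Only MI replicate 2 was high, so its log2 difference of 0.59 ± 0.52 was -0.40 without that library. Cr1l, the mouse membrane regulator Crry, had 33.2 and 44.7 CPM in MI and 39.6 and 36.0 CPM in Sham (0.05 ± 0.19; -0.17 without MI replicate 2 and -0.02 without Sham replicate 2). Clu, clusterin, a secreted chaperone that also binds the terminal complex, was the most abundant member, with 276 and 156 FPKM in MI and 170 and 195 FPKM in Sham. Its log2 difference was 0.00 ± 0.25 (0.00469), from -0.35 without MI replicate 1 to 0.31 without MI replicate 2.

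In coagulation, 0 of the 5 initiation and procoagulant genes passed an unadjusted p of 0.05, beside 7.12% of all genes higher in MI and 4.51% lower. F3, tissue factor, the cellular trigger of clotting, had 11.3 and 12.5 CPM in MI libraries and 12.2 and 22.3 CPM in Sham libraries. Sham replicate 2 alone was high, and the log2 difference of -0.54 ± 0.32 was -0.04 without it. F2r, the thrombin receptor PAR1, had 37.5 and 38.6 CPM in MI, between the 24.0 and 70.3 CPM of the Sham libraries. Its log2 difference of -0.31 ± 0.50 was -0.88 without Sham replicate 1 and 0.66 without Sham replicate 2, and 0.08 in limma on log2(FPKM + 1). The atrial, adipocyte and mesothelial markers, whose sums were highest in Sham replicate 2, are given above. Their part in F3 and F2r was not tested. F13a1, the fibrin crosslinker that tissue macrophages and platelets carry, had 31.0 and 31.0 CPM in MI and 41.6 and 26.3 CPM in Sham (-0.13 ± 0.24; 0.24 without Sham replicate 1 and 0.10 in limma on log2(FPKM + 1)). F5, the cofactor of factor X, was low, with 120 and 41 counts in MI and 43 and 62 in Sham (0.27 ± 0.64; -0.62 without MI replicate 1).

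F7 and F10, the liver-made factors VII and X, are neighbours on chromosome 8 (13026034 to 13035809 and 13037308 to 13056676, both on the plus strand, 1498 bases apart). F7 had 78 and 31 counts in MI libraries, against 84 and 0 counts in Sham libraries. F10 had 88 and 40 counts in MI and 122 and 0 in Sham. Both were present in 3 libraries and at 0 in Sham replicate 2, as were Alb, the liver's albumin (1953 and 1531 counts in MI, 1439 and 0 in Sham), and 2 further liver markers. The other liver markers listed, Ttr and Apoa2, were present there, at their lowest, with 85 and 36 counts. The log2 differences were 0.02 ± 1.76 for F7 and -0.29 ± 1.79 for F10. They were 8.66 and 8.89 without Sham replicate 1, where the Sham library left had 0 counts of both, so they could only be positive. Without Sham replicate 2 they were -0.98 and -1.29. Other liver-made genes of the cascade, named after their values were seen, varied. Fgb, a fibrinogen chain, had 149 and 80 counts in MI and 266 and 0 in Sham, Fgg 151 and 44 in MI and 143 and 0 in Sham, and F2, prothrombin, 32 and 22 in MI and 32 and 0 in Sham. Fga, the other fibrinogen chain, had 136 and 126 in MI and 127 and 8 in Sham. Proz, protein Z, had 44 and 41 in MI and 35 and 52 in Sham, highest in Sham replicate 2. The source of these transcripts was not tested.

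Since F7 and F10 ran together across the libraries, the 250 bases before each start are shown (RefSeq, GRCm38.p6, plus strand, chr8:13025784-13026033 and chr8:13037058-13037307). Capitals mark the motif TGACCTT, searched on both strands, a site of nuclear receptors such as the liver factor HNF4.
F7: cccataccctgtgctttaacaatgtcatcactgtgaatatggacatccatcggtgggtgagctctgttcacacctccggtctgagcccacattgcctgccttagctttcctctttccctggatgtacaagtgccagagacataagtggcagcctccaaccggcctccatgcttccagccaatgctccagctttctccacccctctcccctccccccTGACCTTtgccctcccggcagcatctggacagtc
F10: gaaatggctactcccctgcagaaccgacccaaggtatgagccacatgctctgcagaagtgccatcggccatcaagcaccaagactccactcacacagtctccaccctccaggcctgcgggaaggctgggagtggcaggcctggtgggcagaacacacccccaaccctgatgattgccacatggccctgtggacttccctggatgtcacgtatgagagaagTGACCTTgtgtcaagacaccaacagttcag
The match lies 28 bases before the start of F7 and 24 before that of F10. Of the 25 members with a window, only these 2 hold the 7 letters, which occur in 4.08% of 32851 windows. The letters were chosen after the sequences had been read, and a match does not show that a factor binds.

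Of the 5 anticoagulant genes, Thbd, thrombomodulin, the endothelial receptor that turns thrombin toward protein C (chromosome 2, 148404466 to 148408188, minus strand), was the 1 at an unadjusted p under 0.05. Over all genes 7.12% were higher in MI and 4.51% lower at that p. Thbd had 71.6 and 63.1 CPM in MI libraries, against 52.7 and 46.7 CPM in Sham libraries. The groups were apart, with a log2 difference of 0.44 ± 0.14 (adjusted p = 0.365), 0.35 to 0.54 with 1 library left out. Endothelial markers (Cdh5 and Pecam1 highest, 0 of 5 at 0) summed to 150 and 119 FPKM in MI and to 83 and 96.8 in Sham libraries, and 2 of 5 were higher at an unadjusted p under 0.05, beside 7.12% of all genes. Thbd stood to the sum of the endothelial markers as 0.134 and 0.134 in MI and as 0.138 and 0.116 in Sham libraries, which overlapped. Against Pecam1 alone it stood as 0.58 and 0.532 in MI and as 0.515 and 0.437 in Sham, which did not overlap. Against Cdh5 alone it stood as 0.305 and 0.328 in MI and as 0.351 and 0.264 in Sham, which overlapped. The part of endothelial content was not tested.

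Procr, the endothelial protein C receptor, was low, with 1.76 and 1.74 CPM in MI and 2.03 and 3.44 CPM in Sham. Its log2 difference was -0.64 ± 0.38 (adjusted p = 0.565), and -0.21 without Sham replicate 2. Tfpi, tissue factor pathway inhibitor, had 35.7 and 25.2 CPM in MI and 26.9 and 40.2 CPM in Sham, which overlapped (-0.14 ± 0.27; 0.10 without MI replicate 2, 0.18 without Sham replicate 2 and 0.07 in limma on log2(FPKM + 1)). Pros1, protein S, the cofactor of activated protein C, had 24.7 and 21.1 CPM in MI and 21.8 and 20.7 CPM in Sham (0.11 ± 0.15).

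Gas6, a relative of protein S that acts on the TAM receptor kinases Tyro3, Axl and Mertk rather than in clotting, had 184.5 and 149.5 CPM in MI libraries and 110 and 142.5 CPM in Sham libraries. MI replicate 2 and Sham replicate 2 were close, and the log2 difference was 0.40 ± 0.19 (adjusted p = 0.499). Its receptors stand among the further genes of the pathway. Axl had 22.4 and 19.7 FPKM in MI and 9.63 and 12.6 FPKM in Sham (log2 difference 0.70 ± 0.14, edgeR adjusted p = 0.284). Tyro3 had 0.61 and 0.47 FPKM in MI and 0.19 and 0.23 FPKM in Sham (1.15 ± 0.30). Mertk, the macrophage receptor, had 5.63 and 3.29 FPKM in MI and 2.84 and 2.06 FPKM in Sham (0.61 ± 0.31, adjusted p = 0.515). DESeq2 called Axl (adjusted p = 0.00737) but neither of its relatives, and adjusted p for Axl ran from 0.00737 to 0.991 over the alternatives.

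Of the other complement genes, 32 were in the table and 20 were tested, with 1 higher at an unadjusted p and 0 lower. The 1 was Colec11, a collectin that starts the lectin pathway, with 10.7 and 7.40 FPKM in MI and 5.24 and 5.12 FPKM in Sham (log2 difference 0.57 ± 0.20, adjusted p = 0.404). That share of 5% is near the 7.12% of all genes. Of 35 other coagulation genes 25 were tested, with 5 higher (20%) and 0 lower, beside 7.12% and 4.51% of all genes. The 5 were Axl, Tyro3, Anxa5, F2rl1 and Vkorc1, of which Axl and Tyro3 are the Gas6 receptors above rather than clotting genes. Anxa5, annexin V, which shields the phospholipid on which clotting factors assemble, had 69.1 and 63.2 FPKM in MI libraries, against 35.0 and 39.2 FPKM in Sham libraries. Both groups were tight, with a log2 difference of 0.61 ± 0.12 (edgeR adjusted p = 0.275; DESeq2 adjusted p = 0.00472; 0.00472 to 0.991 over the alternatives). F2rl1, the protease-activated receptor PAR2, had 1.14 ± 0.42, and Vkorc1, the vitamin K recycling enzyme, 0.66 ± 0.25. Of these further genes, 7 of complement and 7 of coagulation were at or under 12 counts in every library.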

How the data were processed

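Poly(A) RNA from 2 MI and 2 Sham hearts was sequenced as strand-marked paired-end libraries, per the labels' protocols. The deposited table gives the authors' estimated counts and the authors' FPKM for 55401 genes, per the file headers. Per the submitters' processing notes, StringTie 1.3.4d, UMI-tools, HISAT2 2.0.4 and cutadapt 1.9 were used, with no role or order stated. The sources used here name neither the build nor whether counting used strand. Coordinates are called GRCm38 because 99.5% of the identifiers occur in GENCODE M21 and 32 of the 34 members have the same start and end there.

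Low counts pile up at multiples of 4 (1174 genes at 4 and 331 at 3 in MI replicate 1), so 12 counts stand for about 3 fragments and were used as the floor. Such floors cover counting error only, since PCR copies are not independent molecules. No value column lacked a sample.

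Whole estimated counts passed edgeR's filterByExpr at its settings of 10 counts (min.count) and 15 in total, were TMM-scaled and were tested in edgeR 4.0.16 (R 4.3.3), 2-sided, on group alone, adjusted by Benjamini-Hochberg over 18475 genes. Each SE is the log2 difference divided by the square root of the F statistic. DESeq2 1.42.0 and limma 3.58.1 on log2(FPKM + 1) or log2(FPKM + 0.1) were alternatives. As a check of the code, the steps were run on simulated counts with a common dispersion for all genes. That run does not show their power for the differences reported here. No label says the replicates are separate animals, so the p-values rest on library-to-library spread that may be only technical. An exact permutation test of 2 against 2 cannot give a p under 0.33.

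The members, lists and rules were chosen with earlier results of these data known. The rule named all 34 members, the further pathway genes at an unadjusted p under 0.05 (at most 10), and the 2 markers of highest mean FPKM per list. Of the 68 further symbols 67 were found. The missing one, C5, is listed as Hc in mouse. Shared 50-base words were counted over GENCODE M21 transcripts on both strands. Of the 34 members, 25 had a promoter window in the RefSeq table.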

Additional observations from a re-analysis of the deposited data

How the results depend on the processing

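With scaling by RLE, without mitochondrial transcripts, without a filter, with counts divided by 4 or with DESeq2, the members higher at an unadjusted p numbered 5 or 6, and in both limma fits and under the replicate block 4. The lower members numbered 2 with RLE, 2 in DESeq2, 2 under the replicate block, and 0 in limma with either pseudocount, against 1. Genes called over the whole table numbered 635 in DESeq2, against 0. The FPKM scale moved the median of all genes by 0.10 (0.0953) with a pseudocount of 1 and 0.20 with 0.1, the component median to 0.11 and 0.53 and the coagulation median to 0.08 and 0.26, while the replicate block moved the coagulation median to 0.11. No label says that the replicate numbers pair the samples. The deviations of same-numbered libraries correlated at -0.056 across genes, which with 2 libraries a group cannot settle whether they do. C1s1, Anxa5 and Axl were called only by DESeq2 among the alternatives.

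Leaving out 1 library gave 0 to 14 genes called, 2 to 9 members higher, 0 to 5 lower, component medians of -0.034 to 0.52 and coagulation medians of -0.41 to 0.16. Log2 differences that changed sign ranged from -15 to 1.44 (Cfd), -1.29 to 8.89 (F10), -0.98 to 8.66 (F7), -1.29 to 2.00 (Vsig4), -0.93 to 1.42 (C2), -0.21 to 1.32 (C5ar1), -0.40 to 1.19 (Cd59a), -0.88 to 0.66 (F2r), -0.62 to 0.83 (F5), -0.050 to 0.71 (C1ra), -0.034 to 0.71 (C4b), -0.43 to 0.24 (F13a1), -0.35 to 0.31 (Clu), -0.41 to 0.18 (Tfpi) and -0.17 to 0.25 (Cr1l). Of these, Clu was -0.0091 with RLE and in DESeq2, -0.0014 with counts divided by 4 and -0.033 under the block. C2, F10, F13a1, F2r and Tfpi were 0.072, 0.035, 0.10, 0.08 and 0.071 in limma with a pseudocount of 1, and 0.30, 0.52, 0.12, 0.11 and 0.084 with 0.1. Under the block C2 was 0.17 and F10 1.51. The cause of each was not tested. C6 could not be fitted without MI replicate 1 or with counts divided by 4, nor Cfd with counts divided by 4, since the filter removed them. Without Sham replicate 1, C6, F7 and F10 had 0 counts in the Sham library left, so they could only come out higher. The same held for C6 without Sham replicate 2. Members with few counts (C6, F7, F10, F5, C4a) are limited by depth.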

Other observations

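Hc, the mouse gene for complement C5, was named after its values were seen. It had 420 and 4 counts in MI replicates 1 and 2, against 8 and 0 counts in Sham replicates 1 and 2, so nearly all of its signal lay in the library with lung markers. Hc did not pass the filter on low counts and has no test here with that filter and all 4 libraries. Fcna, ficolin A, a lectin pathway opener made by macrophages in mouse and also named after its values were seen, had 344 and 105 counts in MI and 103 and 212 in Sham. It shared with Vsig4 (267 and 45 counts in MI, 30 and 155 in Sham) a pattern of 1 high and 1 low library in each group.

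The regulators among the members spanned a wide range of levels. By mean FPKM over the libraries of a group, Clu had 216 in MI and 183 in Sham and Serping1 53.5 in MI and 32.6 in Sham. Cd59a had 19.7 in MI and 11.5 in Sham, Cd55 had 2.57 in MI and 1.20 in Sham and Cr1l 3.70 in MI and 3.10 in Sham.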
